A study of Mus musculus with 12 samples.

Results

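Dense clusters of accessible regions are stretches of a chromosome where many separate peaks of open chromatin lie close together. They were chosen by the measured peak positions: in each of the 3 complete peak lists, peaks longer than 170 bp on chromosomes 1 to 19 were chained wherever the gap between neighbours was 5 kb or less, and chains of 8 or more peaks were kept. RC replicate 3 (RC3) held 6 such clusters, EXT replicate 1 (EXT1) held 2 and EXT replicate 2 (EXT2) held 15. They fell on 18 distinct loci, of which 2 were found in all 3 lists, 1 in 2 lists and 15 in 1 list. The 2 recurrent clusters were chr9:3015214-3038289 and chr6:47737991-47771965 (mm10). Since peak number and position defined them, those measures are given for them as a description with no test.

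The libraries came from the infralimbic prefrontal cortex (ILPFC) of male C57BL/6 mice aged 10 to 12 weeks, all fear conditioned with 3 tone and foot shock pairings. A day later the extinction group (EXT) was given 60 tones in another context, whereas the retention control group (RC) was kept in that context for as long with no tones. Cells positive for Arc and NeuN were sorted by flow cytometry, so every library is limited to sorted neurons positive for Arc. ATAC-seq, in which a transposase cuts accessible DNA, was run on 50000 cells from 5 pooled ILPFCs per library. Lists from 3 RC and 2 EXT libraries entered the work, and only RC3, EXT1 and EXT2 cover every chromosome. RC replicate 1 (RC1) reaches position 166286196 of chromosome 1 and RC replicate 2 (RC2) reaches position 37624379, so neither touches a recurrent cluster. The third EXT library and 6 RNA capture libraries were not analysed here.

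In a typical neuron most accessible regions stand alone at a promoter or an enhancer, where transcription factors have displaced nucleosomes. Several can crowd together at strongly used genes, whose promoter, introns and flanks are open at once, and also in tandem arrays, where one sequence is repeated head to tail. Mouse chromosomes have their centromere at one end, and the assembled sequence begins beside it, in a neighbourhood rich in repeated DNA.

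The sequences shown first belong to the chromosome 6 cluster, because Gm52861, a gene model in it, shares a long stretch of sequence with gene models below it. Each is the RefSeq promoter window of a gene on GRCm38.p6 (mm10), 250 bases before to 50 bases after the annotated start, on the plus strand, 5′ to 3′. Gm52861, a lncRNA gene inside the cluster, has its window at chr6:47738587-47738886. Gm40364, a predicted protein-coding gene 55.9 kb below the cluster, has its window at chr6:47679657-47679956. Capitals mark the bases of each that differ from, or have no partner in, the other. Gm52862, the other lncRNA gene inside the cluster, has its window at chr6:47755016-47755315, and there capitals mark the run of 38 bases shared with a window of Gm40369.
Gm52861: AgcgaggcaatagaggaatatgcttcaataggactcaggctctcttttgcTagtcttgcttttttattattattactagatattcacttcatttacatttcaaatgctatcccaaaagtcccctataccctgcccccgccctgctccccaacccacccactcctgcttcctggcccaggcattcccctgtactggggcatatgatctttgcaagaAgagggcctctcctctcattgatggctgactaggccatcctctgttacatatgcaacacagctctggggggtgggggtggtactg
Gm40364: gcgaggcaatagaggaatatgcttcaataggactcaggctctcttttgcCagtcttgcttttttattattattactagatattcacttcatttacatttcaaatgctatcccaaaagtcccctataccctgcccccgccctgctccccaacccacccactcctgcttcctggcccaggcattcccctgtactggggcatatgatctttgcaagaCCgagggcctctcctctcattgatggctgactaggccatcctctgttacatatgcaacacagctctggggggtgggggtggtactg
Gm52862: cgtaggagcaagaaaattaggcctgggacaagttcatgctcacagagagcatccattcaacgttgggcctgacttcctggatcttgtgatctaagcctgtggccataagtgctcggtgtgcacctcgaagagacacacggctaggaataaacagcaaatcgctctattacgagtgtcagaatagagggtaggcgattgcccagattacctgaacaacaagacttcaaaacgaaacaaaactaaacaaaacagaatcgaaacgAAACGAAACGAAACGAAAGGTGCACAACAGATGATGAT
Of the 300 bases of the Gm52861 window, 297 were identical in the Gm40364 window. The Gm40364 window was in turn letter for letter the same as windows of Gm40369, Gm40367 and Gm36327. These 4 identical windows started 8600, 12990 and 4325 bp apart. Outside this neighbourhood, 7 other windows on chromosomes 1 to 19 shared a run of 30 or more bases with the Gm52861 window, at most 41 bases. For Gm52862 the only such window was that of Gm40369. Over the whole window 152 bases (50.7%) were identical there, against 49.0 to 71.0% between the Gm52861 window and the 7 far windows. The gene Rn4.5s lies 82.9 kb below the cluster. It encodes 4.5S RNA, a short nuclear RNA of rodents whose genes are known to form a tandem array. No peak longer than 170 bp overlapped either lncRNA's window in any of the 3 lists. The nearest such peak lay 316, 312 and 249 bp from the Gm52861 window in RC3, EXT1 and EXT2, and 1513, 1437 and 1414 bp from the Gm52862 window. No annotated start was therefore itself in a peak, although both lncRNA bodies were crossed by the cluster.

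The cluster on chromosome 9 was the same in all 3 lists. It held 11 peaks in RC3, 11 in EXT1 and 11 in EXT2, and its span was 23068, 23076 and 23064 bp. Each of its 11 regions contained exactly 1 peak of every list, and peaks covered 20.3%, 19.5% and 17.2% of the span. For 9 of the 11 regions the summits of the 3 lists, the positions of highest coverage, lay within 30 bp of each other. The median distance between the outermost summits was 10 bp, and the largest was 175 bp. Over all chromosomes, 26665 peaks of RC3 overlapped exactly 1 peak in each EXT list. Of them 24.3% had summits within 30 bp, and the median distance between the outermost summits was 71 bp. Among the 9992 of those peaks with an RC3 pileup of at least 55, the share was 34.4% and the median 51 bp. That pileup is the lowest of this cluster in RC3, where its median was 105, so the sets are not matched in strength.

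Peak strength along the chromosome 9 cluster was uneven and had the same shape in each list. The pileup is the number of extended reads covering the summit, and fold enrichment is that pileup over the read density expected around it, and both are the authors' own values, read only within a list. The strongest region, with its RC3 summit at 3024586, had a pileup of 1532 in RC3, 1432 in EXT1 and 786 in EXT2. Its fold enrichment was 14.7, 13.0 and 13.3. Its neighbour with a summit at 3023537 had a pileup of 1059, 1318 and 748. Another region beside them, at 3025570, had a pileup of 236, 350 and 214 and a fold enrichment of only 2.25, 3.13 and 3.52. These 3 adjacent regions were the centre of the cluster. The outermost regions were lower. The first region, at 3015371, had a pileup of 123, 123 and 72, and the last, at 3038155, had 55, 72 and 38. The first region had a fold enrichment of 12.6, 10.9 and 11.7, and the last had 5.97, 6.27 and 6.20.

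**Figure D1:**
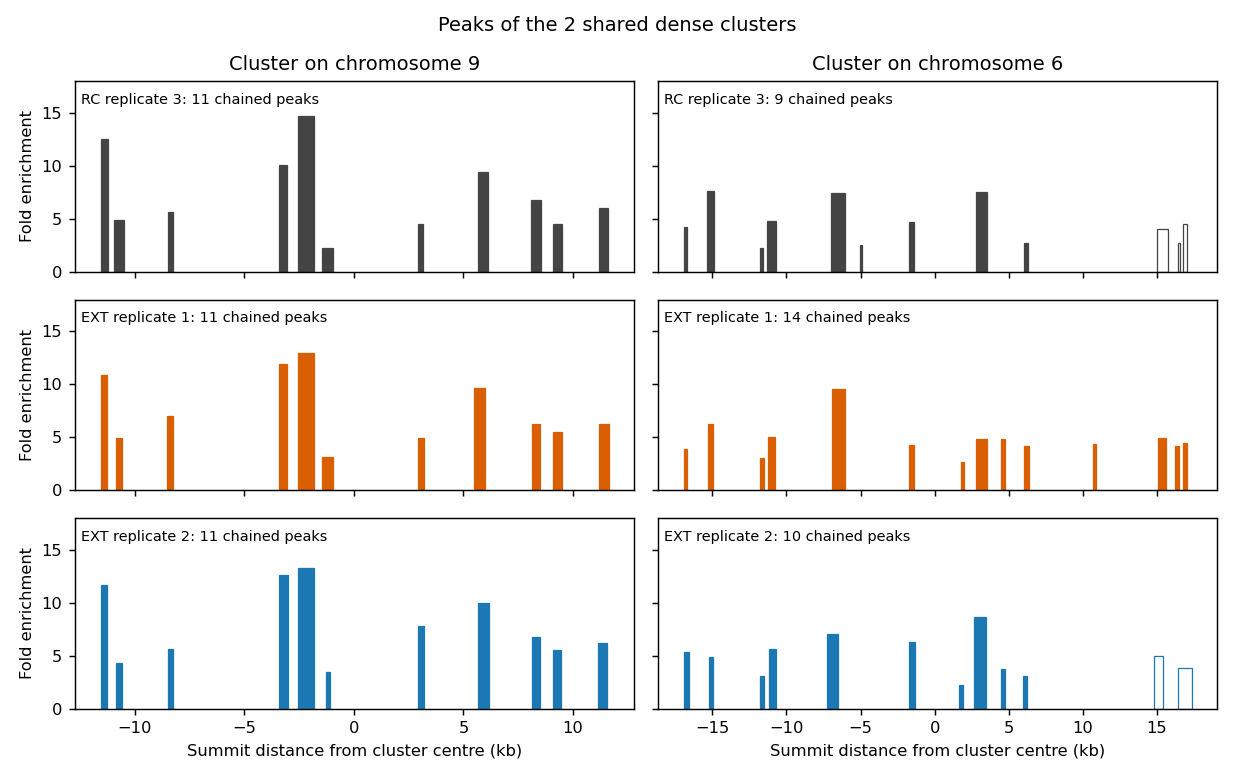
Fold enrichment (vertical axis, each list's own value) of every peak over 170 bp in the recurrent clusters, against the distance of its summit from the cluster's centre in kb. Bar width is the peak length, filled bars are peaks in the chain and open bars are peaks in the span but outside the chain. The 11 bars of chromosome 9 stand at the same places in all 3 lists, and the chromosome 6 chain ends earlier in RC3 and EXT2 than in EXT1.

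The read density around the centre of the chromosome 9 cluster was among the highest in each list. This local background was recovered from pileup and fold enrichment and is in reads expected per summit. No control sample was used, so it came from the same library's reads, which can include those of the peaks nearby. At the 3 central regions it was 103 to 104 in RC3, 109 to 111 in EXT1 and 58.2 to 60.1 in EXT2. The median over all peaks longer than 170 bp was 8.82, 7.61 and 7.25, and the 99th percentile was 28.2, 21.7 and 30.1. Away from the centre the background dropped to 8.38, 10.4 and 5.24 at its lowest. In all 3 lists, 4 more peaks lay below the cluster, between 3000047 and 3006987, behind a gap of 8.23 to 8.24 kb. Their highest pileups were 1319, 1487 and 783. Above the cluster, the next peak was 220 kb away in each list. Whether reads from repeated copies were placed here by the alignment was not tested.

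No gene was annotated inside the chromosome 9 cluster. The nearest was Mir101c, a microRNA gene whose hairpin lies 379 bp above the last peak. MicroRNAs bind target transcripts mainly through the seed, bases 2 to 8, which is in capitals here. The mature miR-101c lies at chr9:3038680-3038698 on the minus strand.
miR-101c: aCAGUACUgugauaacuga
Its distance to the nearest peak was 390 bp in RC3, 390 bp in EXT1 and 401 bp in EXT2. The peak nearest to it was the last of the cluster in every list.

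The cluster on chromosome 6 varied more between lists. Its chain had 9 peaks in RC3, 14 in EXT1 and 10 in EXT2, and spans of 23269, 33920 and 23335 bp. The difference in span came from the upper end. There, EXT1 had a peak of 203 bp at 47765726-47765928 that neither other list held, and gaps of 8467 bp in RC3 and 8585 bp in EXT2 ended their chains. Beyond that gap both lists held peaks again, so that over the whole 33975 bp the lists had 12, 14 and 12 peaks longer than 170 bp. Of 14 regions in this span, 10 had a peak in all 3 lists, 2 had one in 2 lists and 2 in 1 list. Among the 10 regions, 3 had all summits within 30 bp, and the median distance between the outermost summits was 69.5 bp. Over all chromosomes, RC3 peaks with exactly 1 overlapping peak in each EXT list had a median of 71 bp, and 24.3% lay within 30 bp. The region at 47771052-47772005 held 2 peaks in RC3 and 2 in EXT1, and only the one with the highest pileup was taken. Over all chromosomes every such RC3 peak counted. The 2 measures are thus not fully alike, and nothing is read from how close the medians are.

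The strongest peaks of the chromosome 6 cluster stood 4058 to 5356 bp apart. The 5 regions with the highest mean rank of pileup in the lists, a choice made after their values were seen, had RC3 summits at 47739855, 47743985, 47748472, 47753437 and 47758129. The distances between successive summits were 4130, 4487, 4965 and 4692 bp in RC3. They were 4113, 4513, 4939 and 4699 bp in EXT1. In EXT2 they were 4153, 4058, 5356 and 4600 bp. The third of these regions was a peak of 944, 841 and 719 bp in RC3, EXT1 and EXT2, and its EXT2 summit lay 412 bp from the outermost of the others. Of the steps between the identical windows below the cluster, that of 4325 bp (Gm36327 to Gm40364) lay within this range. Those of 8600 and 12990 bp lay outside it. The 5 kb gap limit of the rule also bounds how far apart neighbouring peaks can stand, so nothing is read from the match. Whether the peaks hold the same repeated sequence as those windows was not tested.

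Signal in the chromosome 6 cluster was moderate beside that on chromosome 9. The region with the RC3 summit at 47748472 had the highest pileup in RC3, 150, and in EXT1, 144, and a pileup of 114 in EXT2. Its fold enrichments were 7.42, 9.53 and 7.09. The region at 47758129 had pileups of 82, 41 and 115, the last being the highest in EXT2. Its fold enrichments were 7.48, 4.84 and 8.68. The lowest pileup in the chain was 25, 23 and 29. The local background of its peaks was at most 19.4, 14.2 and 15.2, below the 99th percentile of each list.

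The chromosome 6 cluster overlapped 3 genes, all of them computational gene models. Gm40363, a predicted protein-coding gene, reached 336 bp into its lower end. The body of the lncRNA gene Gm52861 (47738837-47747801) lay whole inside it, as did that of Gm52862 (47755266-47757004). Above the cluster came Rny3 at 9.66 kb and Rny1 at 16.1 kb, which encode Y RNAs, short RNAs bound by the Ro protein. Pdia4, a protein disulfide isomerase of the endoplasmic reticulum, began 24.2 kb above.

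Peaks inside the recurrent clusters were compared with all peaks longer than 170 bp for how often they recurred. Of all peaks on chromosomes 1 to 19, 48.9% in RC3, 57.4% in EXT1 and 33.3% in EXT2 overlapped a peak of both other lists by at least 1 bp. On chromosome 9 it was 11 of 11 in every list. On chromosome 6 it was 8 of 9, 11 of 14 and 8 of 10. Recurrence of the chain is part of how the clusters were chosen, so nothing is read from these higher shares.

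The recurrent clusters stood at the end of a steep distribution. In RC3, 34536 of 44151 chains were lone peaks, 418 had 4 to 7 peaks and 6 had 8 or more. EXT1 had 31637 lone peaks among 39253 chains, 186 chains of 4 to 7 peaks and 2 of 8 or more. In EXT2 the counts were 43036 of 59711, 1164 and 15. EXT2 also had the most peaks longer than 170 bp, 82502 against 56258 in RC3 and 48317 in EXT1, although its total of 57663722 tags was the lowest of the 3. The totals of RC3 and EXT1 were 73835799 and 65002147 tags. With the lists cut to 48317 peaks, RC3 had 4 clusters in place of 6. The part of list length in the difference between lists was not tested apart from that of the library.

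**Figure D2:**
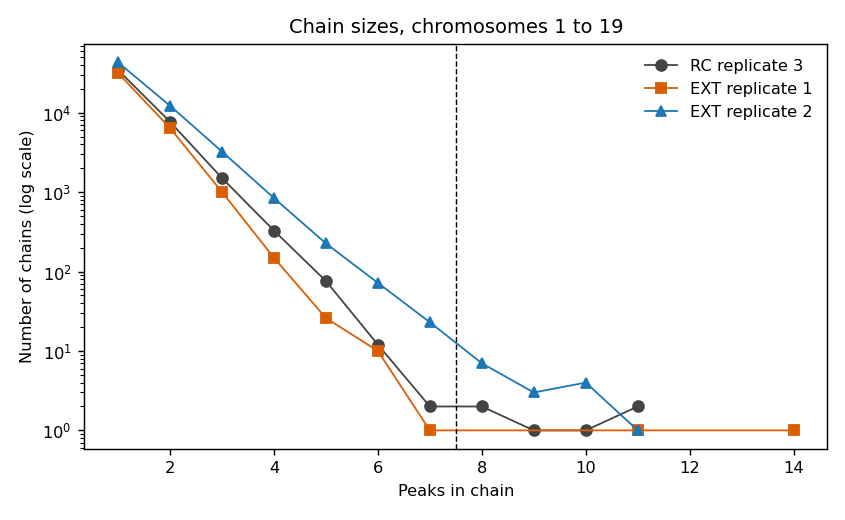
Number of chains (vertical axis, log scale) by the number of peaks in the chain, for the 3 complete lists. The dashed line marks the minimum of 8 peaks. EXT2, the list with most peaks, has more chains at most sizes, whereas the largest chain, of 14 peaks, is in EXT1.

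By the rule the same 2 recurrent clusters count in every list, so their share follows the number of clusters in that list. The 2 recurrent clusters were 33.3% of the 6 in RC3 (exact 95% binomial interval 4.33 to 77.7%). They were 2 of 2 in EXT1 (15.8 to 100%). In EXT2 they were 13.3% of 15 (1.66 to 40.5%). The intervals treat clusters as independent draws although the rule fixes the 2, so they estimate no rate of recurrence. No difference in recurrence between lists is read from them.

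Just inside the minimum of 8 peaks was the chromosome 6 cluster, whose shortest chain had 9. Just outside was chr11:75165475-75195417, with 11 peaks in RC3, 10 in EXT2 and a longest chain of 5 in EXT1, where the locus held 6 peaks in all. No locus had a shortest chain of 6 or 7 peaks. The chromosome 11 locus contains Hic1, a zinc finger repressor, Ovca2, Dph1, an enzyme of diphthamide synthesis, and Rtn4rl1, a receptor related to the Nogo receptor. It also contains Mir212 and Mir132, a microRNA pair known to be induced by neuronal activity. The mature miR-212-3p (chr11:75173443-75173464) and miR-132-3p (chr11:75173723-75173744), both on the plus strand, share their seed.
miR-212-3p: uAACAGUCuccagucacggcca
miR-132-3p: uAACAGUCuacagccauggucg
A peak overlapped miR-132-3p in all 3 lists, with a fold enrichment of 2.77 in RC3, 2.53 in EXT1 and 3.75 in EXT2. For miR-212-3p only EXT2 had an overlapping peak. The nearest lay 10 bp away in RC3 and 114 bp away in EXT1.

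The other 15 loci had a chain of 8 or more peaks in 1 list. RC3 alone had 3 of them, at Ak5, an adenylate kinase, at Sgsm1, and at Sfi1, a centriole-associated protein. EXT2 alone had 12, and EXT1 had none of its own. At the 12 loci of EXT2, which held 8 to 10 peaks there, RC3 had 2 to 6 peaks and EXT1 had 2 to 7. The longest chains in those lists were 1 to 5 and 1 to 7 peaks. These loci thus held peaks in all 3 lists, fewer or more scattered in RC3 and EXT1. Arc, the immediate early gene whose protein was used in the sort, had 6 peaks in RC3, 5 in EXT1 and 9 in EXT2 over chr15:74659377-74679480. Rbfox3, which encodes the NeuN antigen of the sort, had 5, 5 and 8 peaks over chr11:118905632-118927797. Slc17a7, the vesicular glutamate transporter of excitatory cortical neurons, shared a locus with Aldh16a1 and Pih1d1 that had 4, 4 and 8 peaks. The remaining loci included Trak1, an adaptor for mitochondrial transport, Arhgef7, a guanine nucleotide exchange factor, Tgfb3, a growth factor, and Pde2a, a cyclic nucleotide phosphodiesterase.

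**Figure D3:**
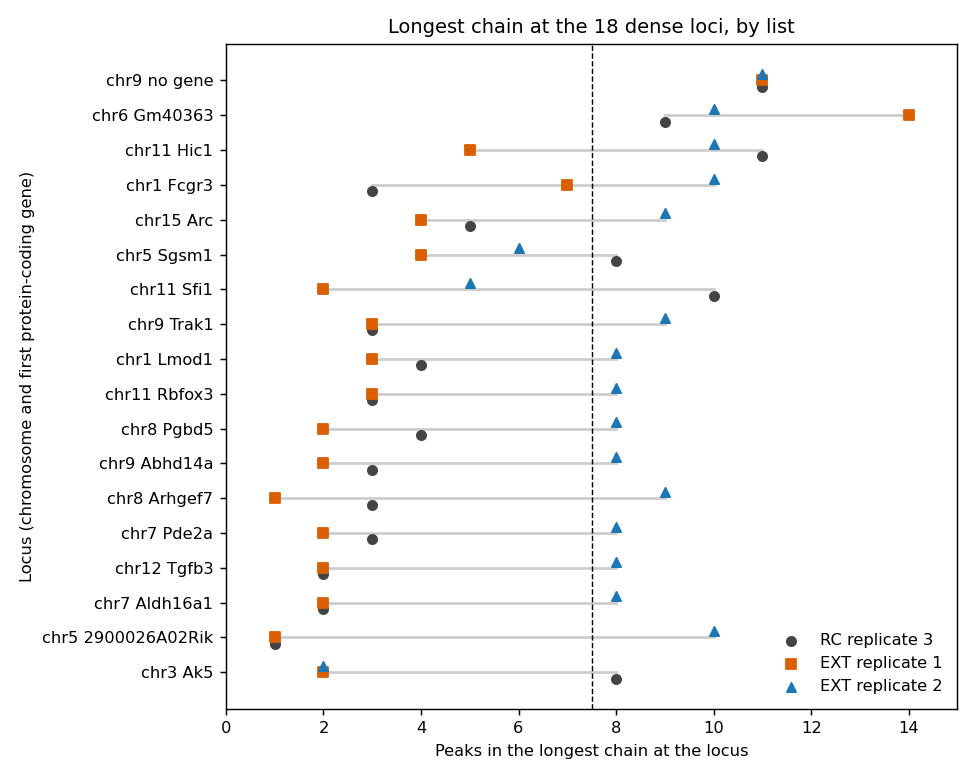
Peaks in the longest chain at each of the 18 loci (rows, labelled by chromosome and first protein-coding gene) in the 3 complete lists. The dashed line marks the minimum of 8 peaks. Only the chromosome 9 and chromosome 6 loci have all 3 lists to the right of it, and EXT2 is to the right at 15 loci.

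A locus of EXT2 on chromosome 1 carried repeated genes. Its cluster, chr1:171063647-171082148, had 10 peaks in EXT2, and the locus had 7 peaks in EXT1 and 6 in RC3. It held 15 tRNA genes, 5 kinds in 3 copies each, beside Fcgr3, an immunoglobulin receptor gene. Successive glutamate tRNA genes started 7628 and 7614 bp apart. The longest chain there was 7 peaks in EXT1, the longest outside the recurrent clusters in that list at the 18 loci.

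The recurrent clusters and the others differed in where their peaks ranked. In the 6 chains of the recurrent clusters, the median peak had a fold enrichment between percentiles 64.8 and 91.4 of its list. In the 17 other chains it lay between percentiles 0.187 and 47.0. Local background showed the opposite order for most: 14 of the 17 other chains had a median background at or above percentile 90, against 1 of the 6. The exceptions among the 17 were the tRNA locus at percentile 64.1, Ak5 at 70.1 and the Tgfb3 locus at 89.9. The Sfi1 cluster of RC3, on chr11:3144047-3169210, had the highest background percentile of all, 99.9, and the lowest fold, a median of 1.89. The Arc cluster ranked near it, with a median fold of 2.39 and a background of 39.3 reads. All 16 loci outside the recurrent pair overlapped at least 1 protein-coding gene, and of the pair the chromosome 6 cluster did, by its lower end. No share over chains of all sizes is given beside these counts, so nothing is read from them. Local background was computed from pileup and fold, so its order and that of fold are not separate results. A cluster recurs only where peaks were called in every list, so nothing is read from the higher fold of the recurrent chains. With 2 recurrent loci these contrasts were given no test.

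**Figure D4:**
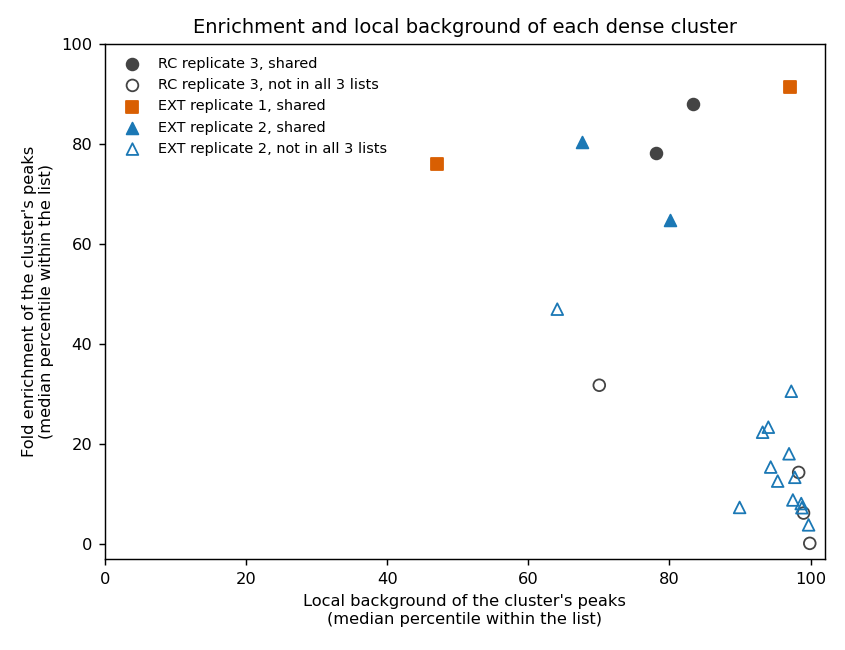
Each of the 23 chains of 8 or more peaks by the median percentile of its peaks' local background (horizontal axis) and fold enrichment (vertical axis), both within its own list. Filled symbols are the recurrent clusters and open symbols the others. The 6 filled symbols lie at or above percentile 64.8 of fold enrichment, and most open symbols lie in the lower right corner.

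Promoter windows were examined at all 18 loci, which contain 24 RefSeq windows. A peak longer than 170 bp overlapped 9 of them in all 3 lists. The same held for 8458 (26.9%) of all 31396 windows on chromosomes 1 to 19. The 9 had a median GC content of 62.7% and 16 CpG sites, against 62.0% and 23 over the 8458 and 53.0% and 7 over all windows. Both windows in the chromosome 6 cluster were outside this group, with 49.3% GC and 2 CpG sites for Gm52861 and 45.3% and 14 for Gm52862. The GC box GGGCGG, searched on both strands, was present in 7 of the 9, in 68.7% of the 8458 and in 36.0% of all windows. The Gm52861 window also contained it, and the Gm52862 window did not. The cAMP response element TGACGTCA, the AP-1 site TGANTCA and the E-box CACGTG were in none of the 9. They were in 4.28%, 4.00% and 11.5% of the 8458 and in 1.83%, 7.84% and 7.14% of all windows. No motif contains another. The windows of Slc17a7 (chr7:45163671-45163970, plus strand) and Hic1 (chr11:75170206-75170505, minus strand) show the GC boxes in capitals. They were chosen after their values were seen.
Slc17a7: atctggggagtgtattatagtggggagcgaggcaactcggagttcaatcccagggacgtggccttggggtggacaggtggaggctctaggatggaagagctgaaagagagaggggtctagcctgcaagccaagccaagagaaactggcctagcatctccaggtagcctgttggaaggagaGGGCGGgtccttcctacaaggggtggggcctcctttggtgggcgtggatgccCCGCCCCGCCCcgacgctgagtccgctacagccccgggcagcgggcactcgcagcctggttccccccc
Hic1: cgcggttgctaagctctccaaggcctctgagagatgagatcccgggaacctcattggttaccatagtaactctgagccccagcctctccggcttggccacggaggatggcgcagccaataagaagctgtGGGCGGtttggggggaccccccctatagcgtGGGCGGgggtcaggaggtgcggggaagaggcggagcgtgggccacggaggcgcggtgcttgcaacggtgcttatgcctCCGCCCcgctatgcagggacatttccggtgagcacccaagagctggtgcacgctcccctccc
The peak over the Slc17a7 window had a fold enrichment of 3.00 in RC3, 3.01 in EXT1 and 2.54 in EXT2. Over the Hic1 window the values were 2.98, 2.63 and 2.72. Hic1 has another window, chr11:75168103-75168402, with no peak in any list, and the nearest peak lay 1824, 1873 and 1780 bp from it.

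Genes of the lists that describe cell types and processes were counted in the clusters. No member of 17 gene lists, which hold 325 genes on chromosomes 1 to 19, was overlapped by a recurrent cluster. Over the clusters of any list there were 3 (0.923%), namely Arc, Slc17a7 and Rbfox3. Of all 20665 protein-coding genes on these chromosomes, 28 (0.135%) were overlapped by a cluster of at least 1 list. The gene lists were chosen with earlier results of these data known, so nothing is read from their higher share. The lists of inhibitory neuron, glial and endothelial markers hold 13 to 18 genes each and had none, and at the overall share nothing is read from that.

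With a lower minimum of 4 peaks in every list, a choice made after the data were seen, 45 regions recurred in all 3 lists. The 2 clusters above were among them, and 4 more had at least 5 peaks in each list. Those 4 were the Hic1 locus, Prkag2, a subunit of the AMP-activated kinase, Pdgfb, a growth factor gene, and the locus of Arsi and Camk2a, the alpha subunit of the calcium and calmodulin-dependent kinase of excitatory synapses. Prkag2 had chains of 5, 5 and 5 peaks in RC3, EXT1 and EXT2. Pdgfb had 6, 6 and 5, and Camk2a had 5, 5 and 7. The 45 regions overlapped 45 protein-coding genes, 0.218% of the 20665. Of the 325 listed genes, 7 (2.15%) were overlapped. They included the immediate early genes Arc, Egr1 and Per1, Camk2a, the neuronal nuclear antigen gene Rbfox3 and the postsynaptic scaffold gene Dlgap3. As the gene lists were chosen with earlier results of these data known, nothing is read from this higher share. Egr1 had chains of 5, 4 and 7 peaks. Others in the set were Eef1a2, a translation elongation factor of neurons and muscle, with 4, 6 and 6, and Sncb, the gene of beta-synuclein, with 4, 4 and 4.

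Regions without genes were also part of this wider set, and the chromosome 9 cluster was not alone at a chromosome's start. Of the 45 regions, 33 overlapped a protein-coding gene and 9 overlapped neither a protein-coding nor a lncRNA gene. There were 6 regions that began within 200 kb of the lowest peak of their chromosome, on chromosomes 4, 9, 10, 11 and 17, and none of the 6 overlapped a protein-coding gene. On chromosome 9 these were the cluster itself and the 4 peaks below it. Those on chromosomes 10 and 11 had 4 peaks in every list. The others had 6, 4 and 5 on chromosome 4 and 4, 5 and 6 on chromosome 17. The Sfi1 cluster of RC3, which begins at 3144047 of chromosome 11, overlaps a protein-coding gene. With a longest chain of 2 in EXT1, it was not among the 45. No share over all chains is given beside these counts, so nothing is read from them.

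The comparison of EXT with RC could be made over all 5 libraries only on chromosome 1 up to position 37624379. No list had a chain of 8 or more peaks there, so the EXT less RC difference was 0 and there was nothing to test. With 3 libraries against 2, an exact two-sided permutation test over the 10 ways of parting the libraries cannot give a p below 0.1. At 4 or more peaks the counts were 20 in RC1, 16 in RC2, 3 in RC3, 1 in EXT1 and 4 in EXT2. The groups overlapped, with means of 13.0 ± 8.89 (SD, n = 3) and 2.50 (n = 2), and the exact permutation test gave p = 0.3. The number of peaks longer than 170 bp on this stretch was 844, 870, 486, 461 and 776 in the same order. RC1 and RC2, which had the most chains, also had the most peaks, and the part of peak number in the chain counts was not tested.

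**Figure D5:**
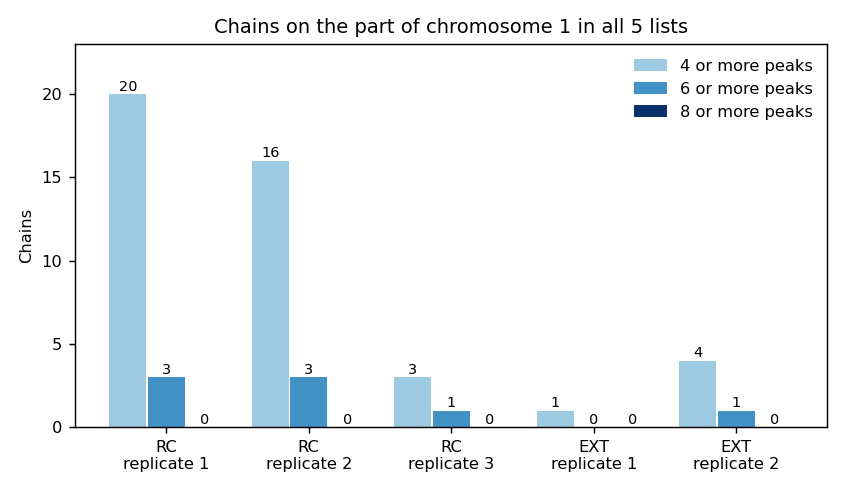
Chains of at least 4, 6 and 8 peaks (vertical axis) on the stretch of chromosome 1 that all 5 lists cover, by library. RC1 and RC2 have 20 and 16 chains of 4 or more peaks, the 3 complete lists have 1 to 4, and no library has a chain of 8.

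The RC lists that end on chromosome 1 held no dense cluster over their own length. RC1 had 3304 chains of any size and none of 8 or more peaks, which allows a share of up to 0.0908%. RC2 had 615 chains and none, which allows up to 0.488%. Both limits lie above the shares of such chains in the complete lists, which were 0.0136% in RC3, 0.0051% in EXT1 and 0.0251% in EXT2. Over chromosome 1 to position 166286196, chains of 4 or more peaks numbered 88 in RC1, 22 in RC3, 10 in EXT1 and 37 in EXT2. The only chain of 8 there was that of EXT2 at Lmod1, Shisa4 and Ipo9, chr1:135366917-135385543. At this locus RC1 had 6 peaks with a longest chain of 4, RC3 had 4 peaks and EXT1 had 4. Each library is a pool of mice, and nothing states that pools were repeated on separate days. These differences hold the spread between libraries and, between RC and EXT lists, any difference between the groups as well. Those parts cannot be told apart here.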

How the data were processed

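ATAC-seq peak lists of 5 libraries (3 RC, 2 EXT) were used. Peak calling was done by the authors library by library in MACS 2.2.4, per the file headers, without a control sample, a shift of -75, an extension of 150 bp, all duplicates kept and a q cutoff of 0.05. Per the submitters' processing notes the build was mm10, and tools included cutadapt 1.17, BWA 0.7.17, SAMtools 1.8 and bedtools 2.27.1. How reads that map to several places were treated is not stated in the labels or headers. Each deposited list gives the pileup (coverage signal at the summit), the fold enrichment (a ratio to local background), the −log10 p and q values and the peak length.

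Peaks longer than 170 bp, the length minimum of the rule, were chained with Python 3.11.15, numpy 2.4.6 and pandas 2.3.3. A cluster counted as shared where chains of all 3 complete lists overlapped by at least 1 bp. Local background was computed as (pileup + 1) / fold − 1; its lowest value in each list equalled the genome-wide read density in the header. Depth was 57663722 to 73835799 tags per complete list. RC replicates 1 and 2 end on chromosome 1, and an incomplete last line was dropped. Genes, promoter windows and microRNAs were those of RefSeq on GRCm38.p6. Promoter windows were aligned with Biopython 1.88, and tests used scipy 1.17.1. Chaining was tested on simulated peaks. All shared clusters and the genes they overlap were named, with up to 4 members of each gene list. The members and gene lists were chosen with earlier results of these data known. Alternatives changed the length, gap, peak number, q value and overlap, and left out each library.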

Additional observations from a re-analysis of the deposited data

Results flagged for a closer look

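Chromosomes X and Y were outside the rule for the clusters, and chains of 8 or more peaks were nevertheless present on chromosome Y. The longest chain there had 10 peaks in RC replicate 3 (90797505 to 90813668) and 11 peaks in EXT replicate 2 (90798185 to 90813148), and both overlapped Gm33272. EXT replicate 1 had a longest chain of 5 peaks at the same place. The 3 lists had 36, 32 and 23 peaks longer than 170 bp on the whole of chromosome Y in that order. On chromosome X the longest chains had 4, 5 and 3 peaks in the same order. All mice were male, and the series has no control libraries for this signal.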

How the results depend on the processing

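The number of clusters in all 3 complete lists, 2, changed with limits on peak length, gap, peak number and q value. It was 0 with a peak length over 300 bp, 0 with gaps of 3 kb or less, 33 with gaps of 10 kb or less, 1 with 10 or more peaks, 1 with −log10 q of at least 5 and 1 with lists cut to 48317 peaks. It was 6 with 5 or more peaks and 45 with 4 or more, both added after seeing the data. It stayed 2 with 6 or more peaks, with a common stretch of at least 50% and with chromosomes X and Y, and was 3 with no length minimum. The chromosome 9 cluster was found in every setting that gave any cluster; the chromosome 6 cluster was lost with 10 or more peaks, with −log10 q of at least 5 and with equal lists. Leaving out 1 list gave 2 to 3 clusters, 3 without EXT replicate 1, where the Hic1 locus joined. The median span, 28525.5 bp, became 61424 bp with gaps of 10 kb and 23076 bp in each setting that left the chromosome 9 cluster alone; it was 23335 to 28525.5 bp leaving out 1 list. The share of RC replicate 3 clusters in both EXT lists, 33.3%, was 0% with a peak length over 300 bp, 100% with −log10 q of at least 5 (1 cluster) and 33.3 to 50.0% leaving out an EXT list. It could not be computed with gaps of 3 kb, where RC replicate 3 had no cluster. With no length minimum 29 clusters of RC replicate 3 gave 10.3%.

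On the shared stretch of chromosome 1, the EXT less RC difference of 0 was also 0 with gaps of 3 kb, with −log10 q of at least 5, leaving out each library (0 to 0), and with a replicate block, the mean difference within replicate numbers 1 and 2. It was -1.83 with 6 or more peaks, -10.5 with 4 or more, -4.50 with gaps of 10 kb and -0.667 with no length minimum, with exact permutation p between 0.3 and 1. With 4 or more peaks the replicate block gave -15.5. The deposited list of EXT replicate 2 is numbered 3 in its own name, and the sample's title was followed. With EXT replicate 2 paired with RC replicate 3 instead, a choice made after seeing the data, the block gave 0 at 8 peaks and -9 at 4 or more. The replicate numbers share only a label; a pairing of the libraries could not be checked with 2 pairs of counts. Counts of peaks limit all these values, since chains of few peaks hinge on single calls near the q cutoff.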
